A study of Sus scrofa with 4 samples.

Results

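The 10 genes described here are genes of fat cells and of the lipid droplet: the adipokines ADIPOQ and LEP, the droplet coat genes PLIN1, PLIN2 and PLIN4, the droplet fusion genes CIDEA and CIDEC, the fatty acid handling genes LPL and FABP4, and the glycerol phosphate enzyme gene GPD1. They were taken by gene symbol, and all 10 were found, each on 1 line, among 26466 gene symbols. Their transcripts were counted in pig kidney, which lies in perirenal fat, in 4 RNA sequencing libraries of 1 kidney state and 1 genotype each. The donor pigs were GalT-/-;hCD39;hCD55, called hCD39/hCD55 here, or GalT-/-;hCD39;hCD46;hCD55;TBM, called hCD39/hCD46/hCD55/TBM. Both genotypes therefore lacked the galactosyltransferase that makes the alpha-Gal antigen and carried human CD39 and CD55, and the second also carried human CD46 and thrombomodulin (TBM). For each genotype there was 1 untransplanted kidney and 1 kidney from a non-human primate recipient, 4 weeks after transplantation for hCD39/hCD55 and 6 weeks after for hCD39/hCD46/hCD55/TBM. The series was designed to compare the 2 donor genotypes for their effect on rejection. Genotype, weeks after transplantation and recipient cannot be told apart among the transplanted kidneys. The promoters of the transgenes, the age of the pigs and the number of animals behind a library are not stated in the labels.

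Cells store neutral fat in droplets, a core of triglyceride under a single layer of phospholipid that is coated with perilipins. PLIN1 coats the large droplet of fat cells and gates the access of lipases to it, PLIN2 coats small droplets in most tissues, kidney tubule included, and PLIN4 binds nascent droplets. The CIDE proteins join droplets at their contact sites and pass lipid from the smaller to the larger. LPL releases fatty acids from circulating lipoproteins at the capillary wall, FABP4 carries fatty acids inside fat cells, capillary endothelium and macrophages, and GPD1 makes the glycerol 3-phosphate on which triglycerides are built. Adiponectin and leptin, the products of ADIPOQ and LEP, are hormones that fat cells secrete.

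Total counts ranged from 10346863 to 14092905 per library, and the 10 genes together held between 2166 and 6395 of them. Levels are given as scaled CPM, the CPM of edgeR computed on library totals multiplied by their TMM factors. A count of 0 allows up to 3 counts, or 0.218 to 0.290 scaled CPM depending on the library. Ribosomal RNA, read as RN18S, RN5-8S and 2 loci whose counts lay within 5% of RN18S in every library, made up 8.01% and 9.32% of the untransplanted and 15.2% and 13.7% of the transplanted libraries (hCD39/hCD55 first), and mitochondrially encoded genes took between 4.23% and 15%. With 1 library per group, intervals cover counting error only, and no pair of libraries has a replicate check.

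ADIPOQ, LEP and PLIN1 transcripts, which mark fat cells, were near or at the limit of detection in every library. ADIPOQ (chromosome 13, 124633906 to 124646237, Sscrofa11.1), the adiponectin gene, had 2 counts in the untransplanted and 0 in the transplanted hCD39/hCD55 kidney, and 1 and 1 in hCD39/hCD46/hCD55/TBM. LEP (chromosome 18, 20106867 to 20124071), the leptin gene, had 3 and 3 counts in hCD39/hCD55 and 0 and 5 in hCD39/hCD46/hCD55/TBM. PLIN1 (chromosome 7, 55237517 to 55250797) had 3 and 1 counts, and 4 and 7. The transplanted hCD39/hCD46/hCD55/TBM library had the highest LEP and PLIN1 counts, and the 3 genes summed to 8, 4, 5 and 13 counts in the same order. They missed the filter of at least 10 counts in 1 or more libraries, so 7 of the 10 genes entered the comparisons. PLIN1 overlaps the long noncoding gene LOC106510160, which had 160 and 46 counts in hCD39/hCD55 and 185 and 14 in hCD39/hCD46/hCD55/TBM.

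Other fat cell markers were mixed, and 12 of 14 passed the count filter. PDE3B had 662 and 758 counts in hCD39/hCD55 and 1440 and 1055 in hCD39/hCD46/hCD55/TBM. AQP7 had 419 and 252 counts and 256 and 145, and CFD had 148 and 242 and 137 and 121. RETN, the resistin gene, had 0 counts in every library, and ADRB3, the adrenergic receptor of fat cells, had 2 counts in the transplanted hCD39/hCD46/hCD55/TBM kidney and 0 elsewhere. PPARG, the transcription factor that drives fat cell differentiation, had 16 and 44 counts in hCD39/hCD55 and 58 and 39 in hCD39/hCD46/hCD55/TBM. The label "adipocyte" is thus not carried by the defining markers ADIPOQ, LEP and PLIN1, and what was measured is mainly the droplet and fatty acid handling genes PLIN2, GPD1, PLIN4, FABP4, CIDEA and LPL. PLIN2 and GPD1 held from 72.0% to 80.3% of the counts of the 10 genes.

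**Figure D1:**
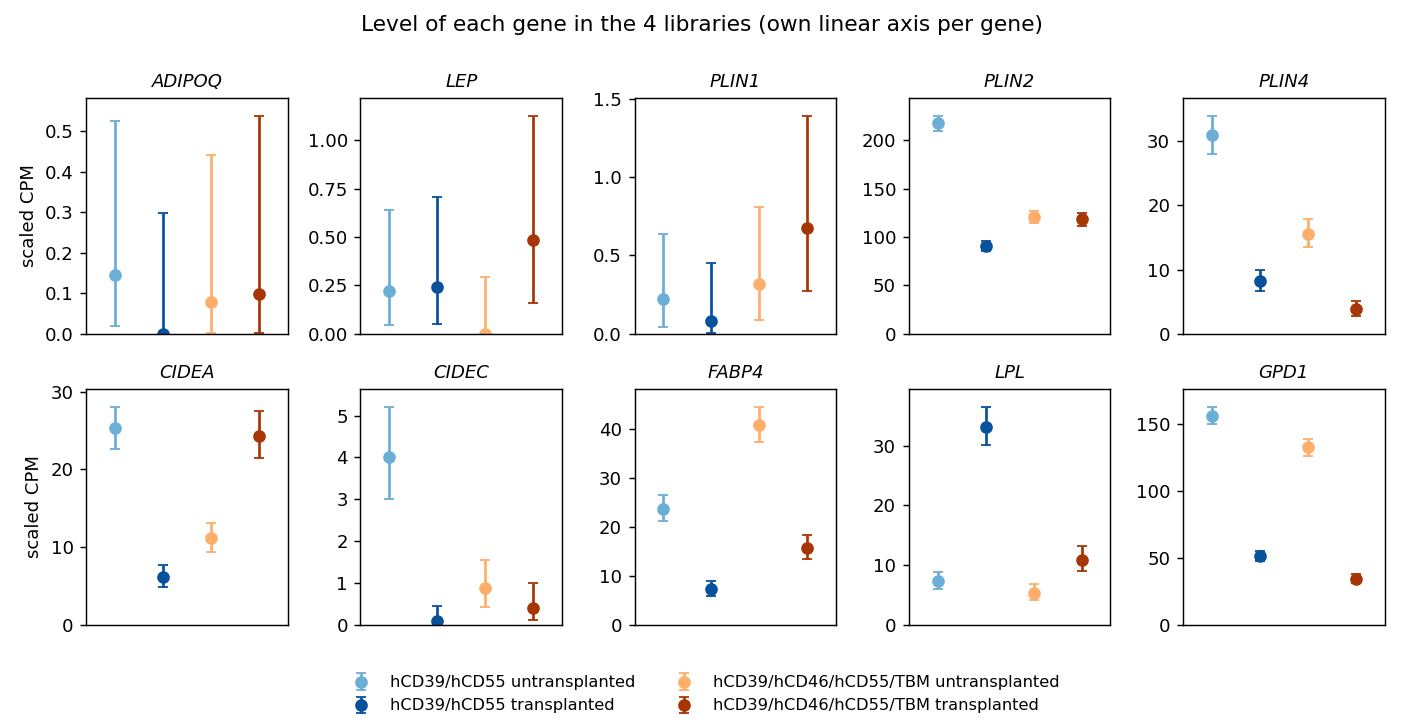
Scaled CPM (vertical axis, linear from 0 and separate for each gene) of the 10 genes in the 4 libraries, 1 point per library with its exact 95% Poisson interval, which covers counting error only. ADIPOQ, LEP and PLIN1 lie under 1 scaled CPM throughout, PLIN4, FABP4 and GPD1 are lower in both transplanted kidneys, LPL is higher in both, and CIDEA goes opposite ways in the 2 genotypes.

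Of the 7 genes kept, most were lower in the transplanted hCD39/hCD55 kidney, and the second genotype shared this for PLIN4, FABP4 and GPD1. A gene was called between 2 libraries when the ratio of scaled counts was at least 2-fold and its exact 95% interval excluded 1. In hCD39/hCD55, 6 were called lower (PLIN2, PLIN4, CIDEA, CIDEC, FABP4 and GPD1), where 13.7% of 18168 genes were, and LPL was the 1 called higher, where 13.2% were. In hCD39/hCD46/hCD55/TBM, 3 were called lower (PLIN4, FABP4 and GPD1; 16.3% of all genes) and 2 higher (CIDEA and LPL; 15.9%). The 4 genes PLIN4, FABP4, GPD1 and LPL thus had the same call in both pairs. The share of all genes with the same call in both pairs was not counted, so this agreement has no background beside it. CIDEC passed the filter only through its counts in the untransplanted kidneys, where it is high. Without it, 5 of 6 genes were called lower in hCD39/hCD55 and 3 of 6 in hCD39/hCD46/hCD55/TBM. These counts describe the genes that passed the filter and not all 10.

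Over both genotypes, with 2 transplanted against 2 untransplanted libraries, GPD1 fell and none of the other 6 passed. The test was edgeR's quasi-likelihood test with Benjamini-Hochberg adjustment over all 18168 genes, in which 2.71% of genes fell and 1.24% rose. At an unadjusted p under 0.05, 5 of the 7 passed, where 19.7% of all genes did. With genotype as a block, which pairs the kidneys of a genotype, 5 of the 7 passed the adjusted test (PLIN4, CIDEC, FABP4, GPD1 and LPL), where 1124 genes rose and 1681 fell. The block leaves fewer residual degrees of freedom than the main test. With it, 28.6% of all genes had an unadjusted p under 0.05. Because the 2 libraries on each side are of different genotypes, their spread holds genotype and weeks too, and nothing in the labels names replicate animals.

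**Figure D2:**
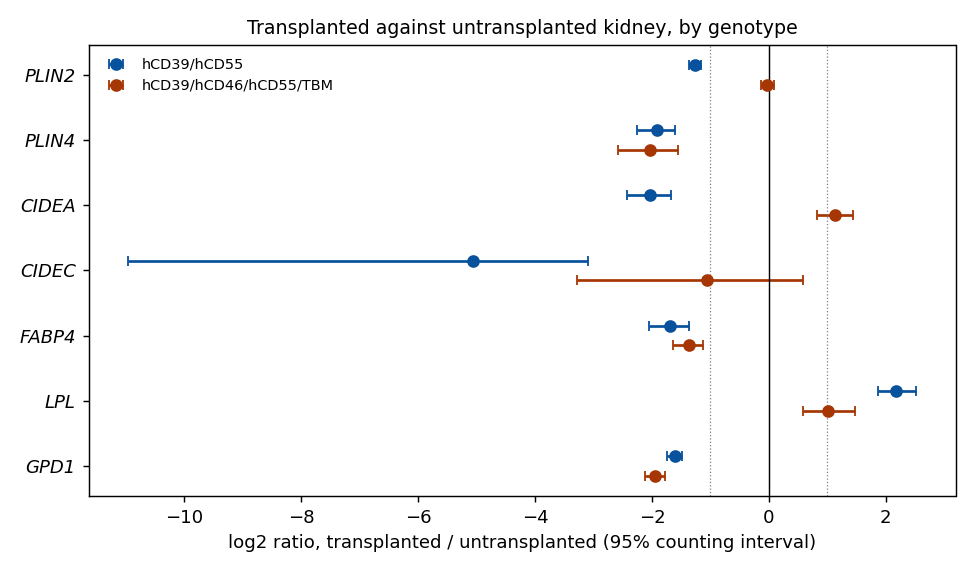
The log2 ratio of transplanted to untransplanted kidney (horizontal axis) with its 95% counting interval for the 7 genes with enough counts, in hCD39/hCD55 (blue) and hCD39/hCD46/hCD55/TBM (orange). Dotted lines mark a 2-fold difference; PLIN4, FABP4 and GPD1 lie below -1 in both genotypes, whereas CIDEA is at -2.03 in one and 1.13 in the other.

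PLIN2 (chromosome 1, 203683867 to 203709277), the droplet coat gene of most tissues, was lower after transplantation in hCD39/hCD55 and near equal in hCD39/hCD46/hCD55/TBM. It had 2992 counts (218 scaled CPM) in the untransplanted and 1126 (90.9 scaled CPM) in the transplanted hCD39/hCD55 kidney. In hCD39/hCD46/hCD55/TBM it had 1527 (121 scaled CPM) and 1226 (118 scaled CPM). The untransplanted hCD39/hCD55 kidney was thus the high library, and the other 3 lay between 90.9 and 121 scaled CPM. The level was 2.39-fold lower in the first pair (log2 ratio -1.26, 95% counting interval -1.36 to -1.16). In the second pair the log2 ratio was -0.03 (-0.14 to 0.08), and its sign turned when counts were scaled by library totals (0.04) or by totals without ribosomal and mitochondrial RNA (0.08). Over both genotypes the log2 fold change was -0.69 (SE 0.45, edgeR adjusted p = 0.425).

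PLIN4 (chromosome 2, 74318624 to 74331920), whose product coats small new droplets, was lower after transplantation in both genotypes. It had 425 and 101 counts in hCD39/hCD55 (30.9 and 8.16 scaled CPM) and 197 and 39 in hCD39/hCD46/hCD55/TBM (15.6 and 3.77 scaled CPM). Both transplanted kidneys were below both untransplanted ones. The ratios were 3.78-fold lower (log2 -1.92, -2.25 to -1.61) and 4.09-fold lower (log2 -2.03, -2.58 to -1.54). Over both genotypes the log2 fold change was -1.96 (SE 0.52), and edgeR's adjusted p of 0.0571 missed the threshold of 0.05. The adjusted p was 0.000566 with genotype as a block, the lowest of 10 alternatives, which reached up to 0.336 and were under 0.05 in 5. HDGFL2, a protein-coding gene that overlaps PLIN4, had 835 and 424 counts in hCD39/hCD55 and 470 and 161 in hCD39/hCD46/hCD55/TBM, and the labels do not say whether strand was used in counting.

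The other perilipins measured were PLIN3 and PLIN5. PLIN5, which ties droplets to mitochondria in tissues that burn fat, fell from 402 to 42 counts in hCD39/hCD55 and from 202 to 13 in hCD39/hCD46/hCD55/TBM (log2 fold change -3.26, SE 0.58, edgeR adjusted p = 0.0101). It passed in all 10 alternatives. PLIN3, a coat protein that cycles between cytosol and droplet, had 422 and 141 counts and 96 and 106, with log2 ratios of -1.43 and 0.43. PLIN2, PLIN3, PLIN4 and PLIN5 all had their highest count in the untransplanted hCD39/hCD55 kidney, and PLIN4 and PLIN5 were lower in both transplanted than in both untransplanted kidneys.

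CIDEA (chromosome 6, 97253074 to 97268355), a droplet fusion gene best known from fat cells that make heat, went opposite ways in the 2 genotypes. It had 347 counts (25.3 scaled CPM) in the untransplanted and 76 (6.14 scaled CPM) in the transplanted hCD39/hCD55 kidney. In hCD39/hCD46/hCD55/TBM it had 141 (11.14 scaled CPM) and 252 (24.3 scaled CPM). The untransplanted hCD39/hCD55 and the transplanted hCD39/hCD46/hCD55/TBM kidney were thus high and close to each other. CIDEA was 4.09-fold lower after transplantation in the first pair (log2 ratio -2.03, -2.42 to -1.68) and 2.18-fold higher in the second (log2 ratio 1.13, 0.82 to 1.44). Over both genotypes the log2 fold change was -0.26 (SE 0.60, edgeR adjusted p = 0.843), and it was 0.45 without the untransplanted and 0.43 without the transplanted hCD39/hCD55 library.

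CIDEC (chromosome 13, 66141836 to 66149801), the droplet fusion gene of white fat cells, was detected above the filter only in the untransplanted kidneys, at 55 counts in hCD39/hCD55 and 11 in hCD39/hCD46/hCD55/TBM. The transplanted kidneys had 1 and 4 counts. The log2 ratio was -5.06 in hCD39/hCD55 (-10.96 to -3.09) and -1.06 in hCD39/hCD46/hCD55/TBM (-3.28 to 0.59), so the second was not a call. Over both genotypes the log2 fold change was -3.38 (SE 1.05, edgeR adjusted p = 0.0959, and 0.0331 with genotype as a block). The noncoding gene LOC106505669 overlaps CIDEC and had 54 and 4 counts in hCD39/hCD55 and 11 and 12 in hCD39/hCD46/hCD55/TBM. Its counts in the untransplanted kidneys were within 1 of those of CIDEC, and reads of these loci cannot be told apart if the counting did not use strand. CIDEB, the CIDE gene of liver and gut, had 280 and 112 counts and 340 and 117, with log2 ratios of -1.17 and -1.24 (edgeR adjusted p = 0.137). It was named after its values were seen, as the third of its family.

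LPL (chromosome 14, 4104761 to 4134964), the lipoprotein lipase gene, was the only 1 of the 7 with a higher count after transplantation in both genotypes. It had 100 and 411 counts in hCD39/hCD55 (7.28 and 33.2 scaled CPM) and 68 and 113 in hCD39/hCD46/hCD55/TBM (5.37 and 10.9 scaled CPM). Both transplanted kidneys were above both untransplanted ones, and the hCD39/hCD55 transplant stood highest. LPL was 4.54-fold higher in the first pair (log2 ratio 2.18, 1.87 to 2.52) and 2.03-fold higher in the second (log2 ratio 1.02, 0.58 to 1.48). The second call was at the edge of the 2-fold rule and was lost, at a log2 ratio of 0.96, when scaling factors were computed without the count filter. Over both genotypes the log2 fold change was 1.80 (SE 0.54), with an edgeR adjusted p of 0.0871. It was 0.00593 with genotype as a block and ranged from 0.00256 to 0.408 over 10 alternatives, 4 of them under 0.05.

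Partners that carry or control the lipase were scarce or had lower counts after transplantation. GPIHBP1, which anchors LPL to the capillary wall, had at most 2 counts in any library. ANGPTL4, an inhibitor of LPL, had 1723 and 620 counts in hCD39/hCD55 and 777 and 301 in hCD39/hCD46/hCD55/TBM (log2 fold change -1.24, SE 0.47, edgeR adjusted p = 0.17). CD36, a fatty acid transporter of the cell surface, had 335 and 100 counts and 211 and 24 (log2 fold change -1.97, SE 0.57, edgeR adjusted p = 0.0743). APOC3, an apolipoprotein that restrains LPL, was the 1 of 13 measured genes of lipase handling that fell, from 504 to 19 counts and, in the second genotype, from 275 to 88 (log2 fold change -2.55, SE 0.66, edgeR adjusted p = 0.0489), and none rose. It did not pass when scaled by library totals (adjusted p = 0.0574).

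FABP4 (chromosome 4, 55096400 to 55101209), the fatty acid carrier of fat cells, endothelium and macrophages, was lower after transplantation in both genotypes. Its counts were 325 and 90 in hCD39/hCD55 (23.7 and 7.27 scaled CPM) and 517 and 163 in hCD39/hCD46/hCD55/TBM (40.8 and 15.7 scaled CPM). Both transplanted kidneys were below both untransplanted ones, and within each state the hCD39/hCD46/hCD55/TBM kidney was higher. The ratios were 3.24-fold lower (log2 -1.70, -2.06 to -1.36) and 2.59-fold lower (log2 -1.37, -1.64 to -1.12). Over both genotypes the log2 fold change was -1.49 (SE 0.49, edgeR adjusted p = 0.115, and 0.00303 with genotype as a block). In bulk tissue, fewer cells of a type and less RNA per cell cannot be told apart.

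Of the other fatty acid carriers, FABP3 and FABP5 passed the count filter and FABP1, FABP2, FABP6 and FABP7 did not. FABP3, the carrier of heart and muscle, had 422 and 320 counts in hCD39/hCD55 and 2006 and 178 in hCD39/hCD46/hCD55/TBM (edgeR adjusted p = 0.0807). Its high library was the untransplanted hCD39/hCD46/hCD55/TBM kidney, as for FABP4. FABP5, a widely expressed carrier, had 298 and 112 counts and 492 and 110 (log2 fold change -1.62, SE 0.45, edgeR adjusted p = 0.0656).

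GPD1 (chromosome 5, 16008179 to 16021676), which reduces dihydroxyacetone phosphate to glycerol 3-phosphate in the cytosol, fell after transplantation. It had 2143 and 634 counts in hCD39/hCD55 (156 and 51.2 scaled CPM) and 1677 and 356 in hCD39/hCD46/hCD55/TBM (132 and 34.4 scaled CPM). The untransplanted kidneys were close to each other, and both transplanted kidneys were far below them. The ratios were 3.05-fold lower (log2 -1.61, -1.74 to -1.48) and 3.85-fold lower (log2 -1.94, -2.11 to -1.78), and the log2 fold change over both genotypes was -1.75 (SE 0.43, edgeR adjusted p = 0.0405). The call was lost without the untransplanted hCD39/hCD55 library (adjusted p = 0.138), without the untransplanted or transplanted hCD39/hCD46/hCD55/TBM library (0.052 and 0.154), and when scaled by library totals (0.0625), while the log2 fold change stayed between -2.06 and -1.49. Loci that overlap GPD1 were LOC102163508, with 144 and 21 counts in hCD39/hCD55 and 107 and 4 in hCD39/hCD46/hCD55/TBM, and LOC110260660, with 671 and 514 and 554 and 281.

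Other enzymes of glycerol phosphate did not pass the test over both genotypes. GPD1L, a paralog of GPD1, had 1362 and 624 counts in hCD39/hCD55 and 687 and 355 in hCD39/hCD46/hCD55/TBM (log2 fold change -0.86, SE 0.44, edgeR adjusted p = 0.306). GPD2, the mitochondrial enzyme that runs the reverse step, had 466 and 400 counts and 371 and 478 (log2 fold change 0.31, SE 0.41, edgeR adjusted p = 0.71). Both were named after their values were seen, as the isoenzymes of GPD1. Glycerol kinase, GK, which makes the same product from glycerol, had 3383 and 892 counts and 2374 and 1822, with log2 ratios of -1.77 and -0.09 (edgeR adjusted p = 0.396).

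The genotypes were also compared within each state by the same rule, in libraries that the transplantation pairs use too. Among untransplanted kidneys, CIDEA and CIDEC were called lower in hCD39/hCD46/hCD55/TBM, where 7.88% of all genes were, and none was called higher, where 8.17% were. CIDEC passed the filter only through these untransplanted libraries, and without it 1 of 6 genes was called lower. CIDEA was 2.26-fold lower (log2 ratio -1.18, -1.47 to -0.90) and CIDEC had a log2 ratio of -2.15 (-3.29 to -1.25). PLIN4 and PLIN2 had log2 ratios of -0.99 and -0.85 and FABP4 of 0.79, with intervals that excluded 0 but sizes under 2-fold. At a threshold of 1.5-fold these 3 were called as well, 5 in all, where 33.3% of all genes were, and among transplanted kidneys the count stayed at 4, where 39.8% were.

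Among transplanted kidneys, 2 genes were called higher in hCD39/hCD46/hCD55/TBM, CIDEA and FABP4, and 2 lower, LPL and PLIN4, where 11.0% of all genes were called in each direction. CIDEA was 3.95-fold higher (log2 ratio 1.98, 1.61 to 2.38) and FABP4 2.16-fold higher (log2 ratio 1.11, 0.73 to 1.503). LPL was 3.03-fold lower (log2 ratio -1.60, -1.92 to -1.30) and PLIN4 2.15-fold lower (log2 ratio -1.10, -1.69 to -0.57). GPD1 had a log2 ratio of -0.57 and PLIN2 of 0.38, both under 2-fold. CIDEC had a log2 ratio of 1.84 on 1 and 4 counts and was not called, because its interval (-1.08 to 7.88) included 0.

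**Figure D3:**
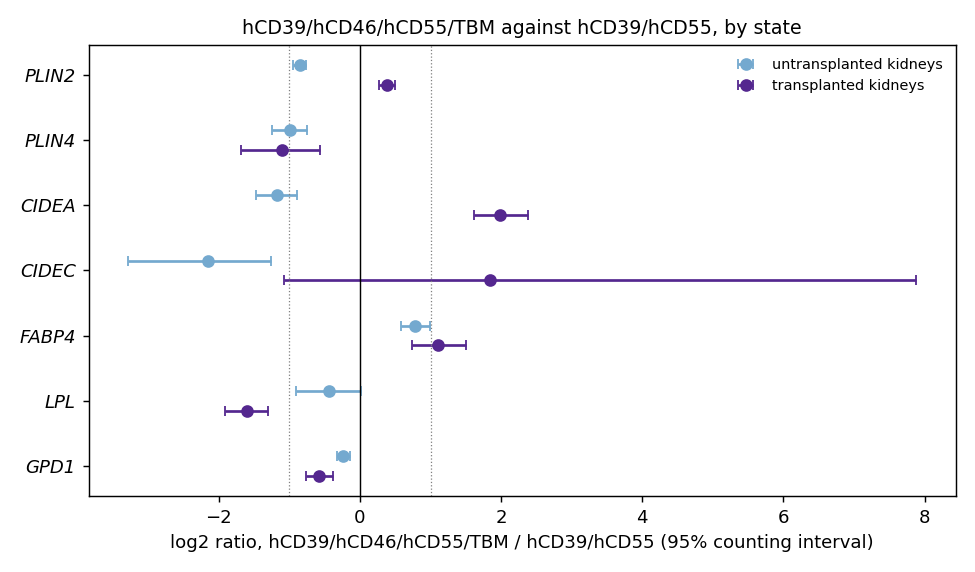
The log2 ratio of hCD39/hCD46/hCD55/TBM to hCD39/hCD55 (horizontal axis) with its 95% counting interval for the 7 genes with enough counts, in untransplanted (light blue) and transplanted (purple) kidneys. Dotted lines mark a 2-fold difference. CIDEA is at -1.18 in untransplanted and 1.98 in transplanted kidneys, and PLIN4 lies close to -1 in both states.

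The change after transplantation itself differed between the genotypes by the counting rule in 4 of the 7 genes, where 21.8% of all genes did. The 4 include CIDEC, which passed the filter only through the untransplanted kidneys, where it is high. Its counts in the transplanted kidneys were 1 and 4. As the log2 ratio of the 2 ratios, hCD39/hCD46/hCD55/TBM over hCD39/hCD55, CIDEA had 3.16 (95% Wald interval 2.69 to 3.62), CIDEC 4.00 (1.18 to 6.82), PLIN2 1.23 (1.09 to 1.38) and LPL -1.16 (-1.70 to -0.63). PLIN4, FABP4 and GPD1 had -0.11 (-0.70 to 0.47), 0.32 (-0.10 to 0.75) and -0.34 (-0.55 to -0.13). These values describe 4 libraries, and genotype and weeks after transplantation cannot be told apart in them.

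The wider droplet and triglyceride genes were compared over both genotypes by the same edgeR test. Of 15 measured genes of droplet coat and growth, PLIN5 fell and none rose, with a median log2 fold change of -0.26 beside 0.03 over all genes. HILPDA, a droplet protein induced by low oxygen that inhibits the lipase ATGL, had 219 and 268 counts in hCD39/hCD55 and 266 and 178 in hCD39/hCD46/hCD55/TBM (edgeR adjusted p = 0.94). Of 13 genes of triglyceride synthesis none passed, with a median of -0.39. GPAT3, which adds the first fatty acid to glycerol 3-phosphate, had 1103 and 691 counts and 1086 and 998 (edgeR adjusted p = 0.896).

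None of 8 lipolysis genes passed the test, and their median log2 fold change was -0.91. PNPLA2, the gene of the droplet lipase ATGL, had 2268 and 2072 counts in hCD39/hCD55 and 672 and 739 in hCD39/hCD46/hCD55/TBM, and was thus higher in both hCD39/hCD55 kidneys. CES1, a carboxylesterase, had 6183 and 1989 counts and 1971 and 376 (log2 fold change -1.62, SE 0.67, edgeR adjusted p = 0.205).

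Among 11 measured PPAR receptors and target genes, CPT1A and ACADM fell and none rose, with a median of -0.70. PPARs are nuclear receptors for fatty acids, and several of the droplet genes above are known targets. CPT1A, which admits fatty acids to mitochondria, fell from 1026 to 199 counts in the first genotype and from 2493 to 333 in the second (log2 fold change -2.49, SE 0.55, edgeR adjusted p = 0.0249), and did not pass without the untransplanted hCD39/hCD46/hCD55/TBM library (0.0888). ACADM, an enzyme of fatty acid oxidation, fell from 5463 to 1591 counts and, in the second genotype, from 5210 to 850 (log2 fold change -1.94, SE 0.47, edgeR adjusted p = 0.0366). ACADM did not pass without the untransplanted hCD39/hCD55 (0.0689), the untransplanted hCD39/hCD46/hCD55/TBM (0.0714) or the transplanted hCD39/hCD46/hCD55/TBM library (0.125), or when scaled by library totals (0.0574).

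**Figure D4:**
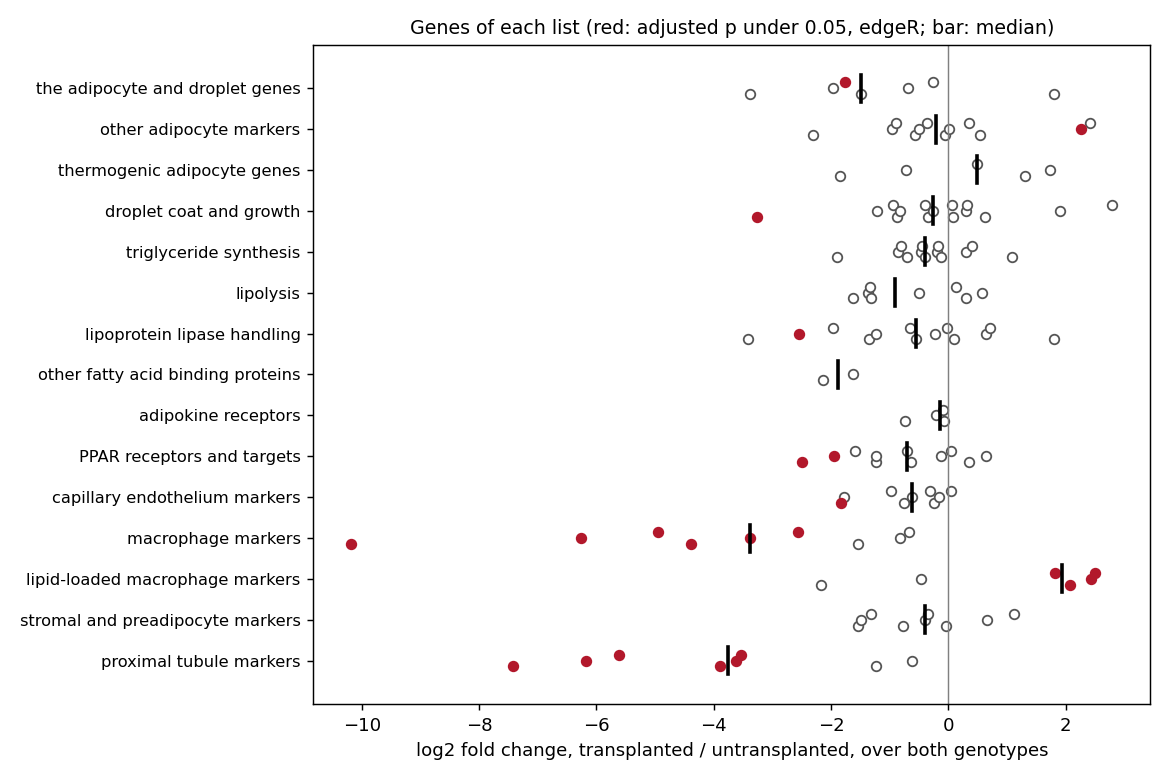
The log2 fold change of transplanted against untransplanted kidney over both genotypes (horizontal axis) for each measured gene of the 10 genes and of the 14 other lists, 1 point per gene, with the list's median as a bar and red points for an adjusted p under 0.05 in edgeR's test. GPD1 is the red point of the first line at -1.75; macrophage and proximal tubule markers lie furthest left, and the leftmost point is C1QC, whose transplanted libraries had 0 counts, so its fitted value is no measure of size.

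Markers of other cells that can express these genes were read beside them, and their part in the results was not tested. Of 9 measured capillary endothelium markers, TEK, an angiopoietin receptor, fell and none rose, and their median log2 fold change was -0.61. TEK did not pass without the untransplanted hCD39/hCD55 (adjusted p = 0.0749), the untransplanted hCD39/hCD46/hCD55/TBM (0.0741) or the transplanted hCD39/hCD46/hCD55/TBM library (0.102), or when scaled by library totals (0.0559). The summed level of the list was 322 and 207 scaled CPM in hCD39/hCD55 and 279 and 175 in hCD39/hCD46/hCD55/TBM, beside 23.7 and 7.27 and 40.8 and 15.7 for FABP4. CLDN5, an endothelial junction gene, had 0 counts in 3 libraries and 2 in the transplanted hCD39/hCD46/hCD55/TBM kidney.

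Most pig macrophage markers fell. The test called 6 of 9 measured lower and none higher, and the median log2 fold change was -3.38. C1QC, a chain of complement C1q, had 152 and 158 counts in the untransplanted and 0 in the transplanted kidneys, C1QB fell from 136 to 1 and from 152 to 2, and the signalling adaptor TYROBP from 150 to 1 and from 116 to 6. The list summed to 90.4 and 9.53 scaled CPM in hCD39/hCD55 and to 84.0 and 18.0 in hCD39/hCD46/hCD55/TBM. FABP4 was lower in the same libraries and LPL higher. Recipient cells were not measured as such.

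Some markers that lipid-loaded macrophages share with other cells rose. Of 6 measured, 4 rose (GPNMB, ABCG1, LGALS3 and ABCA1) and none fell, with a median log2 fold change of 1.95. MSR1, a macrophage scavenger receptor, had 47 and 12 counts in hCD39/hCD55 and 46 and 6 in hCD39/hCD46/hCD55/TBM, a lower call in both pairs (log2 fold change -2.16, SE 0.68, edgeR adjusted p = 0.0993). APOE, an apolipoprotein gene, had 29 and 23 counts and 31 and 15 (log2 fold change -0.46, edgeR adjusted p = 0.734). TREM2, which is the most restricted to macrophages, had 1 count in the untransplanted hCD39/hCD46/hCD55/TBM kidney and 0 in the other libraries. GPNMB, a lysosomal glycoprotein gene, rose from 1049 to 3290 and from 731 to 5120 counts (edgeR adjusted p = 0.0163; 0.0726 without the untransplanted hCD39/hCD46/hCD55/TBM library). ABCG1, a cholesterol exporter, rose from 27 to 120 counts and, in the second genotype, from 28 to 134 (log2 fold change 2.43, edgeR adjusted p = 0.0207; 0.0612 without the untransplanted hCD39/hCD55 library). LGALS3, the galectin-3 gene, rose from 192 to 495 and from 263 to 1107 counts (edgeR adjusted p = 0.0395), and missed the threshold without the untransplanted hCD39/hCD55 (0.14) or the transplanted hCD39/hCD46/hCD55/TBM library (0.221) and under limma voom (0.0567). ABCA1, another cholesterol exporter, was not called without the untransplanted hCD39/hCD55 (0.292), the untransplanted hCD39/hCD46/hCD55/TBM (0.0774) or the transplanted hCD39/hCD46/hCD55/TBM library (0.126). The summed level was 133 and 427 scaled CPM in hCD39/hCD55 and 136 and 806 in hCD39/hCD46/hCD55/TBM, of which GPNMB held 76.4 and 266 and 57.7 and 494.

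Proximal tubule markers fell as well. Of 8 measured, 6 fell and none rose, and the median log2 fold change was -3.76. SLC5A12, a monocarboxylate transporter, fell from 15065 to 220 and from 15005 to 141 counts, and GATM, an enzyme of creatine synthesis, from 4355 to 150 and from 6889 to 56. SLC22A6, an organic anion transporter, had 272 and 4 counts and 543 and 0. The summed level of the list was 10474 and 5678 scaled CPM in hCD39/hCD55 and 12088 and 2910 in hCD39/hCD46/hCD55/TBM, beside 156 and 51.2 and 132 and 34.4 for GPD1. Among the fat cell markers other than the 10 genes, 12 were measured and had a median log2 fold change of -0.21. ADIRF was the 1 that rose, from 219 to 888 counts and, in the second genotype, from 260 to 1067 (log2 fold change 2.26, SE 0.43, edgeR adjusted p = 0.0133), and it did not pass without the untransplanted hCD39/hCD55 library (0.0718). Despite its name, adipogenesis regulatory factor, ADIRF is also expressed outside fat.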

How the data were processed

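The authors deposited raw counts of reads per gene symbol, 1 table per library, with no normalization. Per the labels' protocols, total RNA was made into Lexogen Quant-Seq libraries; the catalogue number given there may belong to another kit of that maker, which leaves unsettled whether reads come from transcript ends only. The tools Bowtie2 and bedtools and the build Sscrofa11.1 come from the submitters' processing notes; the sources used here state neither versions nor strand nor how reads with several matches were handled. Counts of 81 symbols on more than 1 line were summed; none of the 10 genes was among them. Coordinates and overlaps come from the RefSeq table of Sscrofa11.1, which held all 26466 symbols. No sequence table was used here.

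The filter kept 18168 genes that reached 10 counts in any library. TMM factors were 0.975, 1.07, 0.957 and 1.00 for the untransplanted and transplanted hCD39/hCD55 and the untransplanted and transplanted hCD39/hCD46/hCD55/TBM libraries, on totals of 14092905, 11566041, 13226372 and 10346863. Log2 ratios used a prior count of 0.5, with exact 95% Clopper-Pearson intervals of the conditional binomial; without molecular identifiers these, like the floor of 3 counts, cover only counting error. The test over both genotypes was edgeR's quasi-likelihood test (edgeR 4.0.16, R 4.3.3), on 2 residual degrees of freedom; the SE is the absolute log2 fold change over the square root of F. On simulated counts for this comparison (18168 genes), it recovered 98 of 100 genes changed 4-fold and 100 of 100 changed 8-fold, with 13 false calls. The simulated spread was set by hand, held no difference of genotype or weeks, and changes were planted only in well-counted genes. The recovery therefore does not give the power of the test on the real libraries, and genes that did not pass are not shown to be unchanged. Alternatives used DESeq2 1.42.0, limma 3.58.1, other scalings, no count filter, genotype as a block, and each library left out. The genes and lists were chosen with earlier results of these data known. Genes named beyond the 10 are their nearest partners and, per list, up to 3 past the test with the smallest p, or the 2 with the largest mean level where none passed. Exceptions, named after their values were seen, are RETN, ADRB3, PDE3B, AQP7, CFD, DIO2, EBF2, PDGFRA, CLDN5, TREM2, ABCA1, MSR1, APOE, CIDEB, GPD1L and GPD2. So are the FABP genes under the filter and loci that overlap the 10 genes. Of 140 listed genes 138 were in the files.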

Additional observations from a re-analysis of the deposited data

Results flagged for a closer look

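CIDEA was called lower after transplantation in hCD39/hCD55 (347 and 76 counts) and higher in hCD39/hCD46/hCD55/TBM (141 and 252 counts), a difference between the changes of 3.16 on the log2 scale. It was singled out because the libraries of the 2 genotypes moved in opposite directions. With 1 library per group the difference was not tested beyond counting error, and weeks after transplantation differ along with genotype.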

How the results depend on the processing

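Calls between pairs of libraries were little affected by scaling: the number of the 7 genes called stayed within 1.5 times in every pair and for the difference of changes under each of 5 alternatives, except that 5 in place of 2 were called between the untransplanted kidneys at 1.5-fold. Without the count filter, PLIN1 (1 and 7 counts) was also called higher in the transplanted hCD39/hCD46/hCD55/TBM than in the transplanted hCD39/hCD55 kidney, which made 5 calls, and in the hCD39/hCD46/hCD55/TBM pair LEP (0 and 5 counts) gained a higher call while LPL lost its own. The PLIN2 log2 ratio in hCD39/hCD46/hCD55/TBM turned from -0.03 to 0.038 with library totals and to 0.077 with totals free of ribosomal and mitochondrial RNA; library totals move the median of all genes to 0.16 in hCD39/hCD55 and 0.08 in hCD39/hCD46/hCD55/TBM. Over both genotypes, where GPD1 alone passed, 5 genes passed when genotype was a block, 3 in DESeq2's Wald test, 5 without the count filter and 0 with library totals (edgeR, 5 at an unadjusted p under 0.05), and from 0 to 3 when a library was left out. The lone library of a side was then assumed to vary like the others. The CIDEA log2 fold change ranged from -1.56 to 0.45 when a library was left out, and was positive (0.45 and 0.43) without either hCD39/hCD55 library. Of 245 values of single genes under alternatives, 216 kept direction and side of the threshold, 5 lost a call, 20 gained one and 4 changed sign. The values at the 1.5-fold threshold are the same ratios as before, so they could gain a call but not lose one or change sign. All genes that rose and fell numbered 225 and 493, and they numbered 1124 and 1681 when blocked by genotype, 413 and 860 in DESeq2, 543 and 1035 unfiltered, and 1051 and 1349 when the transplanted hCD39/hCD55 library was left out. Depth limits ADIPOQ, LEP, PLIN1 and the transplanted values of CIDEC, whose intervals were wide.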

Other observations

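Genes of heat-producing fat cells were measured in part. Of 7 listed, 5 passed the count filter and none passed edgeR's test over both genotypes, with a median log2 fold change of 0.48. Between libraries, 1 was called higher and 1 lower in hCD39/hCD55 (13.2% and 13.7% of all genes). In hCD39/hCD46/hCD55/TBM, 2 were called higher and 1 lower (15.9% and 16.3%). DIO2 was called higher in both pairs (14 and 49 counts, and 9 and 19) and EBF2 in the second (9 and 29). COX7A1 was the 1 called lower in each. PPARGC1A, a coactivator of mitochondrial gene expression, had 1958 and 1863 counts in hCD39/hCD55 and 2786 and 3691 in hCD39/hCD46/hCD55/TBM (edgeR adjusted p = 0.636). COX7A1, a cytochrome oxidase subunit of muscle and brown fat, had 2374 and 838 counts and 1536 and 150 (log2 fold change -1.84, SE 0.61, edgeR adjusted p = 0.115).

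Receptors for the adipokines were present although the adipokine transcripts were near 0. ADIPOR2 had 1122 and 683 counts in hCD39/hCD55 and 486 and 603 in hCD39/hCD46/hCD55/TBM, and ADIPOR1 had 536 and 229 and 396 and 245. None of the 4 receptor genes passed edgeR's test, and their median log2 fold change was -0.15. Of 9 stromal and preadipocyte markers none passed, with a median of -0.40. Between libraries, 1 was called higher and 3 lower in hCD39/hCD55 (13.2% and 13.7% of all genes). In hCD39/hCD46/hCD55/TBM, 1 was called higher and 2 lower (15.9% and 16.3%). PDGFRA was the 1 called higher in each pair, with 439 and 826 counts and 296 and 560 (edgeR adjusted p = 0.146). DPP4, which proximal tubule cells also express, had 6357 and 1821 counts and 3458 and 1552 (edgeR adjusted p = 0.14), and the matrix gene DCN had 1997 and 2215 and 1360 and 697 (edgeR adjusted p = 0.978).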
